A study of Arabidopsis thaliana with 4 samples.

Results

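Pericentromeric blocks are the stretches on both sides of each centromere. In Arabidopsis thaliana they are known for transposons, satellite repeats and few genes, and in the plant their DNA is methylated and packed into heterochromatin. LEAFY (LFY) is a transcription factor that controls flower development, and its partner UNUSUAL FLORAL ORGANS (UFO) belongs to the F-box family, whose members choose the substrates of a ubiquitin ligase. ampDAP-seq mixes tagged protein with PCR-amplified genomic DNA in vitro and sequences the DNA that is purified with it. The copies carry neither methylation nor nucleosomes, and sites in pericentromeric DNA that is closed in the cell are exposed.

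The blocks were fixed stretches of the 5 chromosomes, and a peak belonged to a block when its centre lay inside. They ran from 11.5 to 17.7 Mb on chromosome 1, from 1.1 to 7.2 Mb on chromosome 2, from 10.3 to 17.3 Mb on chromosome 3, from 1.5 to 6.3 Mb on chromosome 4 and from 9 to 16 Mb on chromosome 5. Together they spanned 31.1 Mb, which was 26.1% of the length up to the last peak of each chromosome. The blocks held 7043 of the 37490 peaks of the 3 lists, and the other 30447 peaks lay on the chromosome arms. Positions are on the TAIR10 build that the submitters' processing notes name.

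The lists came from 3 protein preparations, all on genomic DNA of wild-type Col-0 seedlings aged 2 weeks. They were 5xmyc-LFY K249R, a lysine-to-arginine mutant, with a recombinant complex of ASK1 and UFO-3xFLAG (LFY K249R + UFO), the same mutant alone (LFY K249R), and unmutated 5xmyc-LFY with that complex (LFY + UFO). ASK1 is the adaptor that joins F-box proteins to the ligase, and the myc-tagged proteins were translated in vitro. Both mutant lists kept peaks common to 2 replicates and the LFY + UFO list kept peaks found in all 3. Unmutated LFY on its own was not analysed here, nor was a peak list of the input DNA.

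Each list gives 400-bp intervals with no value per peak. The replicates were merged before deposit, so no test between preparations was possible and read depth is unknown. The length of a list and the depth of its libraries cannot be told apart. The comparisons with arms were therefore made within a list. Where values of different lists are set side by side, in counts or shares, they describe the lists as deposited. Shares carry exact (Clopper-Pearson) 95% binomial intervals, and differences between blocks and arms carry Newcombe 95% intervals. Both cover counting error over peaks only.

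The gene annotation fitted the name of the blocks. Protein-coding genes occurred at 109 per Mb in the blocks and at 273 per Mb on the arms. Pseudogenes, a class that in this annotation includes many transposon-derived loci, occurred at 121 per Mb in the blocks and at 12.1 per Mb on the arms. The direction was the same on each of the 5 chromosomes. Protein-coding genes covered 21.8% of the blocks and 65.5% of the arms, pseudogenes 27.4% and 2.06%, and 49.6% of the blocks and 31.1% of the arms lay outside any gene.

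Peaks were thinner in the blocks than on the arms in all 3 lists, and least so in the lists of the mutant protein. The LFY K249R + UFO list had 1690 block peaks, or 19.7% of the list (18.9% to 20.6%). The LFY K249R list had 2028, or 20.4% (19.6% to 21.2%), and the LFY + UFO list had 3325, or 17.5% (17.0% to 18.1%). The LFY + UFO share was the lowest of the 3, but these intervals count peaks within a list and do not compare preparations. LFY K249R + UFO peaks occurred at 54.3 per Mb in the blocks and at 78.2 per Mb on the arms, a ratio of 0.694 (exact interval 0.658 to 0.733). LFY K249R peaks occurred at 65.2 per Mb in the blocks and at 90.1 per Mb on the arms, a ratio of 0.724 (0.689 to 0.760). For LFY + UFO the densities were 106.9 and 177.6 per Mb and the ratio was 0.602 (0.580 to 0.625).

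Seen as counts, the LFY K249R list had 0.610 times as many peaks as LFY + UFO in the blocks and 0.507 times as many on the arms. The LFY K249R + UFO list had 0.508 times as many as LFY + UFO in the blocks and 0.441 times as many on the arms. Between the mutant lists, the one with UFO had 0.833 times as many peaks as the one without it in the blocks and 0.869 times as many on the arms. On each of the 5 chromosomes the block-to-arm ratio was lowest for LFY + UFO. Chromosome 1 had the lowest ratio in each list, with 0.585 for LFY K249R + UFO, 0.628 for LFY K249R and 0.541 for LFY + UFO.

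The density of listed peaks fell further towards the middle of the blocks, taken as the midpoint of their bounds. Under 1 Mb from the middle, density was 31.8 peaks per Mb for LFY K249R + UFO, 43.6 for LFY K249R and 59.6 for LFY + UFO. From 1 to 2 Mb it was 57.2, 66.6 and 110.9 peaks per Mb in the same lists, and beyond 2 Mb within the blocks it was 72.1, 83.4 and 145.9. Without the inner stretch under 1 Mb, an alternative chosen after seeing the data, the block-to-arm ratios were closer to 1, at 0.831, 0.838 and 0.728, and each interval still lay below 1. The blocks were thus not uniformly poor in peaks. All bases counted towards these densities. Repeated sequence, in which a peak may not be callable, was not measured, and its part in the lower densities was not tested.

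**Figure D1:**
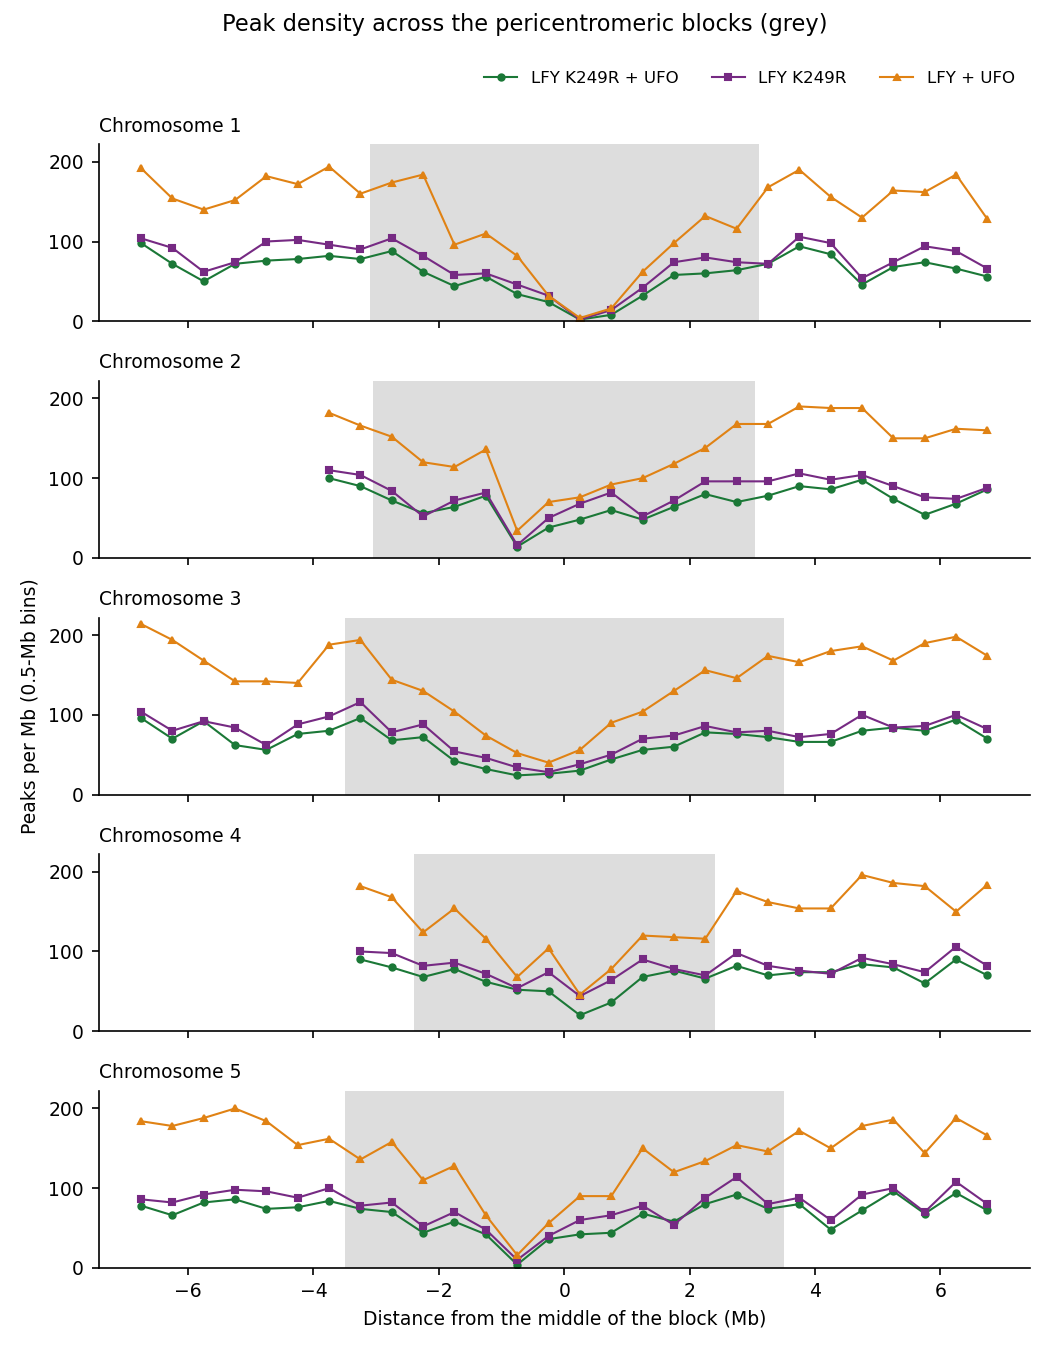
Peaks per Mb (vertical axis, 0.5-Mb bins) against distance from the middle of the block in Mb (horizontal axis) on the 5 chromosomes, with 1 line per list and the block in grey. In the lowest bin of chromosome 1 the density was 2 per Mb for LFY K249R + UFO, 2 for LFY K249R and 4 for LFY + UFO, and in the lowest bin of chromosome 4 it was 20, 44 and 46 per Mb.

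The lowest bin adjoined the middle of the block in all 3 lists on chromosomes 1 and 4, and was centred at -0.75 Mb from it in all 3 lists on chromosomes 2 and 5. The longest stretch without a peak of any list ran from position 15079018 to 15427083 on chromosome 1, which is 348.1 kb. On chromosome 2 it ran from 3212484 to 3515480 (303.0 kb), on chromosome 3 from 13574536 to 13873993 (299.5 kb), and on chromosome 5 from 11654743 to 11993275 (338.5 kb). Chromosome 4 had the shortest, from 3913442 to 4043232 (129.8 kb). Its lowest bin also held more LFY K249R and LFY + UFO peaks than that of any other chromosome, but fewer LFY K249R + UFO peaks than that of chromosome 3. The blocks were tiled by 311 windows of 100 kb. Of these, 24 held no LFY K249R + UFO peak, 19 no LFY K249R peak and 17 no LFY + UFO peak. Windows with no peak of any list lay on chromosomes 1, 2, 3 and 5. Those on chromosomes 1, 3 and 5 mostly held no protein-coding gene sequence. Exceptions with much of it were 3300001-3400000 and 3400001-3500000 on chromosome 2 and 14400001-14500000 on chromosome 5. Protein-coding genes covered 34.4%, 49.7% and 34.8% of them, against 21.8% of all block sequence. Whether reads could be placed in the peak-free stretches was not tested.

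Peaks within protein-coding genes were nearly as dense in the blocks as on the arms. In such genes LFY K249R + UFO peaks occurred at 67.8 per Mb in the blocks and at 72.5 per Mb on the arms, a ratio of 0.935 (0.847 to 1.03). The ratio was 0.950 (0.867 to 1.04) for LFY K249R, so both mutant intervals included 1. It was 0.916 (0.863 to 0.973) for LFY + UFO, whose 175.8 and 191.9 peaks per Mb differed beyond counting error. In pseudogenes the ratios were 0.697 for LFY K249R + UFO, 0.710 for LFY K249R and 0.653 for LFY + UFO. Outside genes they were 0.664 (0.615 to 0.715), 0.706 (0.659 to 0.756) and 0.586 (0.551 to 0.623). The lower density of the blocks thus lay in pseudogenes and outside genes more than in protein-coding genes.

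**Figure D2:**
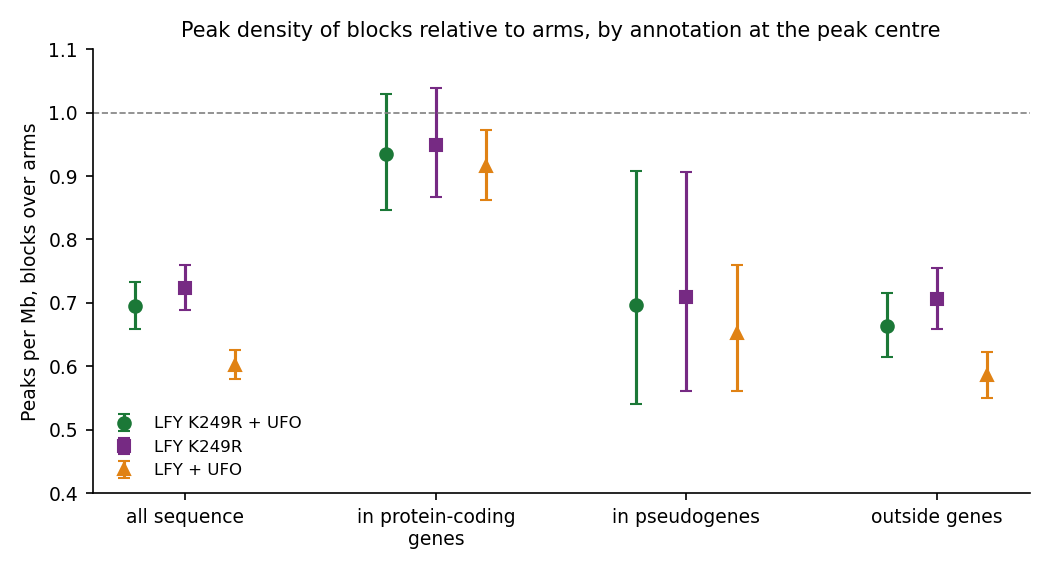
Ratio of peak density in the blocks to that on the arms (vertical axis, no unit, axis from 0.4) for all sequence and by the annotation at the peak centre (horizontal axis), with exact 95% intervals as bars and 1 symbol per list. Within protein-coding genes the 3 ratios lie between 0.916 and 0.950, and outside genes between 0.586 and 0.706.

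The mix of annotation under the peaks was therefore another one in the blocks. Of the LFY K249R + UFO peaks, 27.2% of those in the blocks and 60.7% of those on the arms had their centre in a protein-coding gene. For LFY K249R the shares were 26.5% and 60.7%, and for LFY + UFO they were 35.8% and 70.8%. Pseudogenes held 15.3% of the LFY K249R + UFO peaks in the blocks, 15.1% of those of LFY K249R and 21.3% (19.9% to 22.8%) of those of LFY + UFO, against 1.15%, 1.16% and 1.48% on the arms. Sequence outside genes held 56.3% and 57.3% of the block peaks of LFY K249R + UFO and LFY K249R, and 41.4% (39.7% to 43.0%) of those of LFY + UFO. As deposited, the LFY + UFO list thus held a larger share of block peaks in genes and pseudogenes than either mutant list, and on the arms its share in protein-coding genes was also larger.

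The 1693 block peaks found in LFY + UFO only had their centre in a protein-coding gene in 40.3% of cases (37.9% to 42.7%), in a pseudogene in 26.0% and outside genes in 32.0%. The 1328 block peaks of LFY + UFO with a partner in both mutant lists lay in protein-coding genes in 29.4% (27.0% to 32.0%), in pseudogenes in 15.2% and outside genes in 54.1%. The 276 block peaks found in LFY K249R only had the opposite lean, with 16.3% (12.1% to 21.2%) in protein-coding genes, 12.3% in pseudogenes and 71.0% (65.3% to 76.3%) outside genes. Their counterparts on the arms, 603 peaks, lay outside genes in 48.4%.

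A partner was a peak of another list with its centre at most 200 bp away. Both directions of the 3 pairs of lists and the share found in no other list gave 9 comparisons of blocks with arms. In 7 of them the interval of the difference excluded 0. Both directions of a pair count largely the same shared sites, and the share in no other list follows from the same partners. The 9 comparisons are therefore not independent of each other. The largest difference was in the LFY K249R list. In the blocks 1536 of its 2028 peaks, or 75.7%, had a LFY + UFO partner, against 6781 of 7928, or 85.5%, on the arms and 83.5% of the whole list. The difference was -9.79 percentage points (-11.9 to -7.81) and had this direction on 5 of 5 chromosomes, from -8.45 on chromosome 2 to -12.6 on chromosome 1. When blocks and arms were compared within the 4 kinds of annotation (protein-coding, pseudogene, RNA gene, outside genes), an alternative chosen after seeing the data, the difference was -6.97 points (-9.11 to -4.83).

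LFY K249R + UFO peaks were also without a LFY + UFO partner more often in the blocks. The partner was present for 1423 of 1690 block peaks, or 84.2%, and for 89.3% of the arm peaks, where the whole list had 88.3%. The difference of -5.13 points (-7.08 to -3.30) had this direction on 5 of 5 chromosomes, with -9.91 on chromosome 1 and -0.730 (-5.46 to 3.16) on chromosome 4. Compared within the kinds of annotation it was -2.76 points (-4.76 to -0.753), which is less by over 1.5 times.

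Between the mutant lists, sharing differed less. Of the LFY K249R + UFO peaks in the blocks, 1544, or 91.4%, had a LFY K249R partner, against 90.9% on the arms and 91.0% of the whole list. The difference was 0.465 points (-1.11 to 1.90). Seen the other way, 76.1% of LFY K249R peaks in the blocks and 79.0% on the arms had a LFY K249R + UFO partner, where the whole list had 78.4%. This difference was -2.83 points (-4.92 to -0.805), on 5 of 5 chromosomes. Without the inner stretch of the blocks, an alternative chosen after seeing the data, the value was -0.820 points (-3.09 to 1.34). That interval included both 0 and -2.83, so it does not settle whether the difference lay in the inner stretch.

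**Figure D3:**
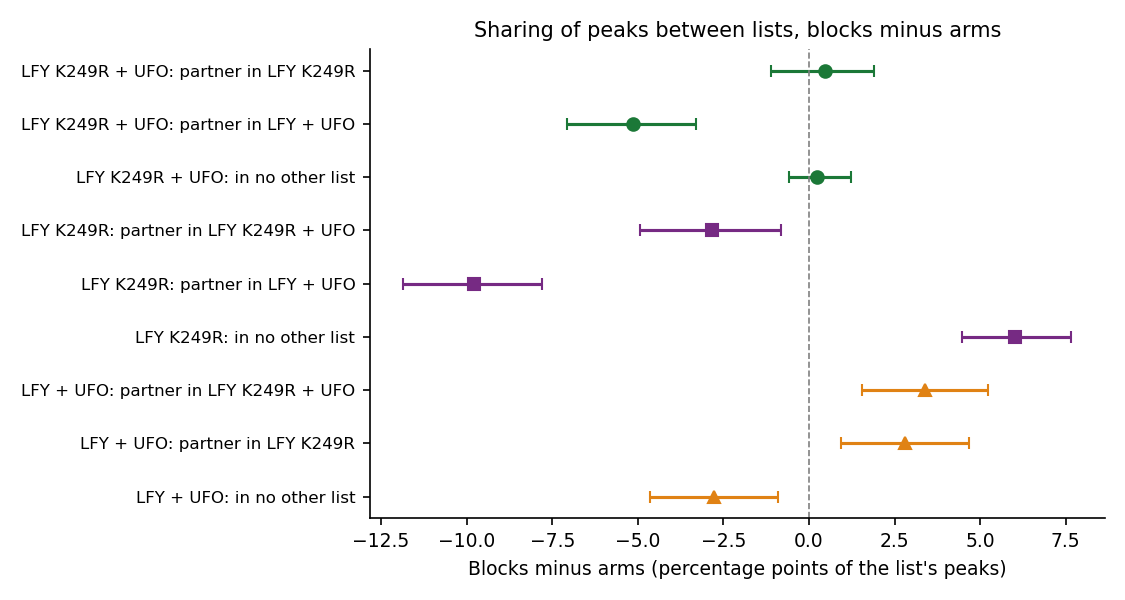
Blocks minus arms, in percentage points of each list's peaks (horizontal axis), for the share with a partner in each other list and the share in no other list (vertical axis), with Newcombe 95% intervals as bars and 1 symbol per list. The intervals of 7 of the 9 differences exclude 0, and the lowest is -9.79 for LFY K249R peaks with a LFY + UFO partner.

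The 1328 sites of the blocks that all 3 lists shared made up 78.6% of the LFY K249R + UFO peaks there, against 83.01% on the arms and 82.1% of the whole list. They made up 65.5% of the LFY K249R peaks, against 72.1% on the arms and 70.8% of the whole list, and 39.9% of the LFY + UFO peaks, against 36.5% and 37.1%.

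For LFY + UFO the differences ran the other way. In the blocks 42.8% of its peaks had a LFY K249R + UFO partner, against 39.4% on the arms and 40.0% of the whole list, a difference of 3.38 points (1.54 to 5.23). A LFY K249R partner was present for 46.3% of the block peaks and 43.4% of the arm peaks, where the whole list had 43.9%, a difference of 2.81 points (0.946 to 4.67). The share in neither mutant list was 50.9% in the blocks, 53.7% on the arms and 53.2% in the whole list, a difference of -2.79 points (-4.66 to -0.918).

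These LFY + UFO differences moved with the annotation and with chromosome 4. Within protein-coding genes 57.3% of the block peaks and 57.9% of the arm peaks were in neither mutant list, and within pseudogenes 62.2% and 61.04%. Outside genes, where sharing was more common everywhere, the shares were 39.3% and 42.1%. Compared within the kinds of annotation, the share in neither mutant list differed by -1.36 points (-3.37 to 0.638), and the share with a LFY K249R + UFO partner by 1.99 points (0.00677 to 3.98). On chromosome 4 the share in neither mutant list was 44.9% in the block and 53.7% on the arms, while on chromosome 1 it was 54.8% and 53.2%. Without chromosome 4 the difference in that share was -1.74 points (-3.77 to 0.288), and the one for LFY K249R partners was 1.83 points (-0.184 to 3.85).

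A larger share of LFY K249R peaks was in no other list in the blocks than on the arms. There 276 of its 2028 peaks, or 13.6% (12.1% to 15.2%), were in neither other list, against 603 of 7928, or 7.61% (7.03% to 8.21%), on the arms and 8.83% of the whole list. The difference was 6.004 points (4.46 to 7.66). All 5 chromosomes had this direction. The smallest block share, 12.7%, was on chromosome 2, whose arms had 7.36%, and the largest, 16.7%, was on chromosome 4, whose arms had 8.80%. Compared within the kinds of annotation the difference was 5.02 points (3.31 to 6.73). For LFY K249R + UFO the share in no other list was 3.02% in the blocks, 2.79% on the arms and 2.83% in the whole list, and the difference of 0.230 points had an interval that included 0 (-0.597 to 1.23).

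**Figure D4:**
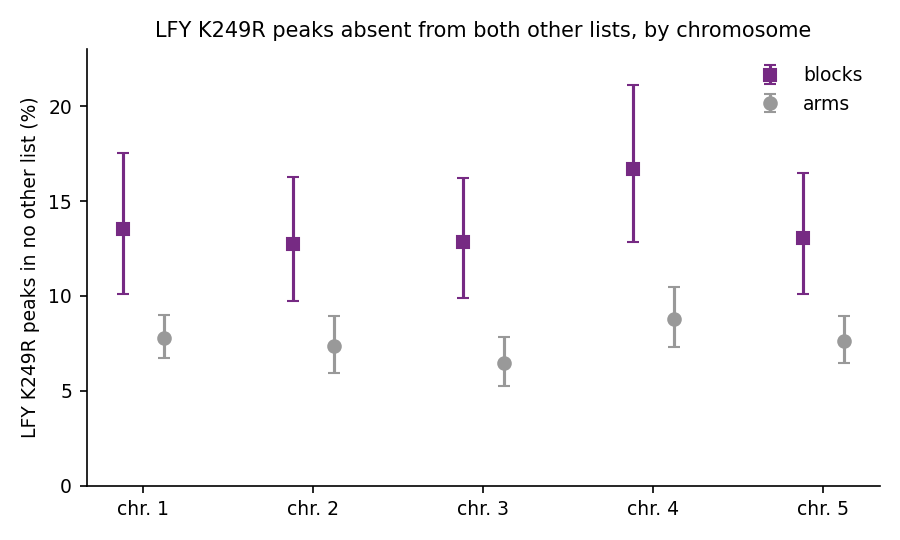
Percentage of LFY K249R peaks in no other list (vertical axis) in the block and on the arms of each of the 5 chromosomes (horizontal axis), with exact 95% binomial intervals as bars. The block shares run from 12.7% to 16.7% and the arm shares from 6.46% to 8.80%, and each block interval lies above the arm interval of its chromosome.

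Annotation and position within the block moved with this share. Outside genes 16.9% (14.7% to 19.1%) of the LFY K249R peaks in the blocks were in no other list, against 9.99% (8.93% to 11.1%) on the arms. Within protein-coding genes the shares were 8.38% and 6.17%, a difference of 2.21 points (0.0341 to 4.94). Within pseudogenes they were 11.1% and 6.52%, and that difference of 4.55 points had an interval that included 0 (-3.06 to 9.87). By surroundings, in the 114 windows with pseudogenes over less than 20% of their length the share was 10.5% (8.59% to 12.7%), and in the 85 windows with 40% or more it was 20.3% (16.7% to 24.4%). In the same windows the LFY + UFO share in no other list was 51.0% and 50.6%. Windows rich in pseudogenes lay mostly towards the middle of the blocks, so this contrast was not told apart from distance to the middle. Repeated sequence was not measured, and its part in the result was not tested.

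Under 1 Mb from the middle of the block 103 of 436 LFY K249R peaks, or 23.6% (19.7% to 27.9%), were in no other list. From 1 to 2 Mb the share was 11.3%, and beyond that within the blocks it was 10.6% (8.68% to 12.7%). By chromosome the inner share ran from 19.3% on chromosome 5 to 29.7% on chromosome 4. Without the inner stretch the difference between blocks and arms was 3.26 points (1.70 to 4.98), less by over 1.5 times but still above 0. The LFY + UFO share in no other list was 48.7% in the inner stretch and 51.7% beyond 2 Mb.

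**Figure D5:**
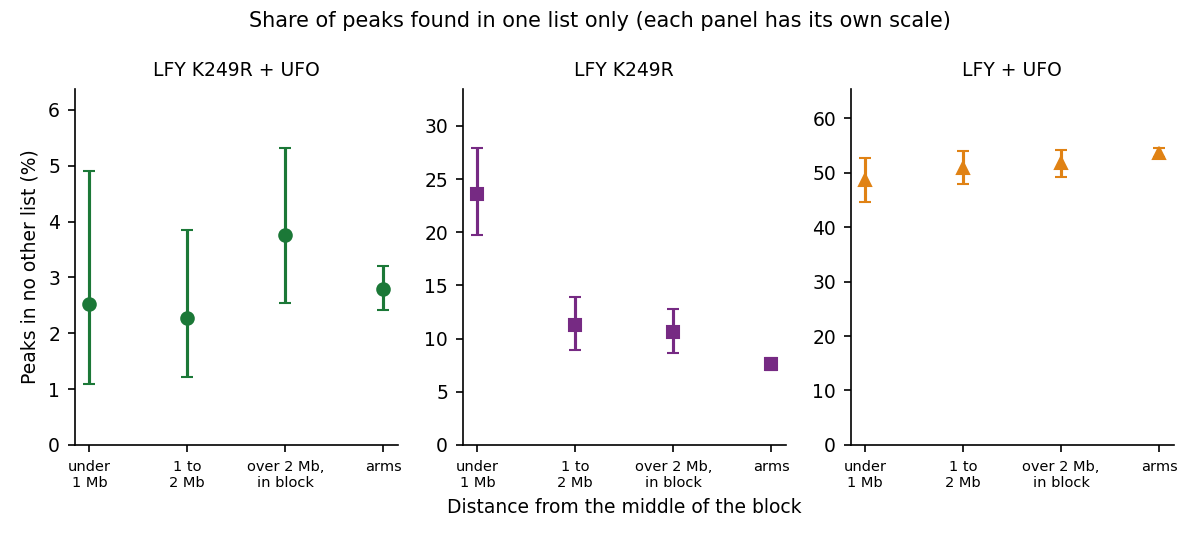
Percentage of peaks in no other list (vertical axis, a scale of its own in each panel) by distance from the middle of the block and on the arms (horizontal axis), with exact 95% binomial intervals as bars. LFY K249R peaks reach 23.6% in the inner stretch against 7.61% on the arms, while the LFY K249R + UFO shares lie between 2.27% and 3.75%.

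Peaks that the mutant had only without UFO were in the LFY + UFO list less often in the blocks than on the arms. In the blocks 484 LFY K249R peaks had no LFY K249R + UFO partner, and 208 of them, or 43.0% (38.5% to 47.5%), were in the LFY + UFO list. On the arms it was 1065 of 1668, or 63.8% (61.5% to 66.2%). The difference was -20.9 points (-25.8 to -15.8), with this direction on 5 of 5 chromosomes. The peaks left over, 276 in the blocks and 603 on the arms, are the LFY K249R peaks in no other list given above. The difference thus restates that result over fewer peaks, and it was not recomputed within annotation or without the inner stretch. LFY K249R peaks that did have a LFY K249R + UFO partner were in the LFY + UFO list in 86.0% of cases in the blocks and 91.3% on the arms, a difference of -5.30 points (-7.24 to -3.51). Of the 146 block peaks that the mutant had only with UFO, 95, or 65.1% (56.7% to 72.8%), were in the LFY + UFO list, against 69.4% on the arms, and this difference had an interval of -13.1 to 3.84 points.

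Where a site was shared by all 3 lists, its position was as close between lists in the blocks as on the arms. The median distance from LFY K249R + UFO to LFY K249R centres was 5 bp in the blocks and 6 bp on the arms. To LFY + UFO centres it was 9 bp in both regions, from either mutant list. Centres lay more than 50 bp apart for 4.44% of the LFY K249R + UFO peaks in the blocks and 4.74% on the arms when set against LFY + UFO, a difference of -0.297 points (-1.44 to 1.05). The other pairs of lists differed by -0.435 points (-0.831 to 0.165) and -0.431 points (-1.65 to 0.996).

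Neighbouring peaks were farther apart in the blocks but overlapped no less often. The median distance between neighbouring LFY + UFO centres was 4752 bp in the blocks and 3812 bp on the arms, and 4.31% (3.64% to 5.05%) and 3.70% (3.41% to 4.01%) of neighbours overlapped. For LFY K249R + UFO the medians were 10425 and 8657 bp, and 2.02% (1.40% to 2.81%) and 1.21% (0.962% to 1.49%) overlapped. For LFY K249R they were 8683 and 7488 bp, with 1.63% and 1.23% overlapping.

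Single sites were named by nearness to the middle of the block, which is the midpoint of its bounds and need not be its peak-poorest part. The longest stretch without a peak of any list was centred 0.65 Mb from the middle on chromosome 1, 0.79 Mb on chromosome 2 and 0.68 Mb on chromosome 5. On chromosomes 3 and 4 it was centred 0.08 Mb away. On chromosome 2 the LFY + UFO peak of all 3 lists nearest to the middle, at 4152736-4153135, lay 2.94 kb from the middle, with the centres of the LFY K249R + UFO and LFY K249R peaks 16 and 17 bp away. On chromosome 4 the peak at 3896698-3897097 lay 3.10 kb from the middle, and its mutant partners were 0 and 1 bp away. On chromosome 5 the peak at 12491171-12491570 was 8.63 kb and on chromosome 1 the peak at 14586930-14587329 was 12.9 kb from the middle. On chromosome 3 the nearest such site, at 13949273-13949672, was 149.5 kb away, beyond the peak-free stretch that spans the middle. All 5 of these peaks lay outside genes, and the nearest gene or pseudogene was a pseudogene for 4 of them. Of all 1328 block peaks of LFY + UFO in both mutant lists, 54.1% lay outside genes, so these 5 are examples only.

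The LFY K249R peak in no other list nearest to the middle lay 1.91 kb from it on chromosome 2 (4147887-4148286), 6.35 kb on chromosome 4 (3906151-3906550), 93.6 kb on chromosome 5 (12593410-12593809), 161.3 kb on chromosome 3 (13961123-13961522) and 375.0 kb on chromosome 1 (14224792-14225191). That of chromosome 3 lay in the pseudogene AT3G33151 and the others outside genes. On chromosome 3 a LFY + UFO centre was 425 bp away, beyond the limit for a partner. Among peaks that LFY + UFO alone had, the nearest on chromosome 1, at 14160573-14160972, had its centre inside NIA2, which encodes a nitrate reductase. A LFY K249R centre lay 424 bp and a LFY K249R + UFO centre 516 bp from it, on opposite sides. The closest to any middle was that of chromosome 4, at 3899340-3899739, 0.461 kb away and inside the protein-coding gene AT4G06676. Those of the other chromosomes lay outside genes. They were 16.6 kb from the middle on chromosome 2 (4133218-4133617), 74.2 kb on chromosome 3 (13873994-13874393) and 31.4 kb on chromosome 5 (12531240-12531639).

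Crowded windows lay inside the blocks too. On chromosome 1 the highest number of LFY + UFO peaks in a 100-kb window was 23, reached at 11900001-12000000, 12400001-12500000 and 17000001-17100000. On the others the fullest window held 25 on chromosome 2 (6700001-6800000), 24 on chromosome 3 (10600001-10700000), 22 on chromosome 4 (1500001-1600000) and 24 on chromosome 5 (9800001-9900000). In these 7 windows the LFY K249R + UFO list had 7 to 13 peaks and the LFY K249R list 9 to 16. All 7 lay nearer to an edge of their block than to its middle. Protein-coding genes covered 34.9% to 65.4% of them, against 21.8% of all block sequence and 65.5% of the arms. The fullest LFY K249R window, named after its count was seen, held 18 at 5000001-5100000 on chromosome 2, beside 13 LFY K249R + UFO peaks. LFY K249R peaks in no other list were spread thinly, with none in 139 of the 311 windows and at most 6 in any. Of the 8 windows with 4 or more, a limit chosen after seeing the counts, 5 were on chromosome 4. The fullest, at 4400001-4500000, had 8 LFY K249R peaks of which 6 were in no other list, beside 2 LFY K249R + UFO and 4 LFY + UFO peaks. Pseudogenes covered 51.8% of it and protein-coding genes 4.71%.

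Genes of the blocks, placed by their lower coordinate, had a peak within 1000 bp less often than genes of the arms. A peak of all 3 lists was present at 728 of 3383 protein-coding genes in the blocks, or 21.5%, and at 26.1% of those on the arms, where the value over all such genes was 25.6%. The difference was -4.61 points (-6.07 to -3.09), and with blocks 0.5 Mb wider on both sides it was -2.85. A LFY + UFO peak was present at 42.8% of the block genes and 54.5% of the arm genes, a wider gap of -11.8 points (-13.5 to -9.97). The gaps were -4.19 points for LFY K249R + UFO and -4.72 for LFY K249R. Only LFY + UFO had a peak at 16.3% of the block genes and 22.4% of the arm genes, and only LFY K249R at 1.51% and 1.13%. Pseudogenes had a peak of all 3 lists in 11.7% of cases in the blocks and 16.2% on the arms, against 12.7% of all of them. Neighbouring genes can share a peak and genes on the arms stand closer together, so these gaps do not separate peak density from gene spacing.

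Flower development is what LFY and UFO are known for, and 2 of 37 floral regulators looked up lay in a block. So did 3383 of all 27444 protein-coding genes, and 21.5% of these block genes had a peak of all 3 lists within 1000 bp. SEP4 (AT2G03710), a MADS-box gene that acts with the other SEPALLATA genes in floral organ identity, had a peak of each list inside the gene, at 1130002-1130401 for LFY K249R + UFO, 1130005-1130404 for LFY K249R and 1130013-1130412 for LFY + UFO on chromosome 2. The 3 centres spanned 11 bp. LFY + UFO had a further peak at 1131703-1132102, centred 65 bp outside the gene and in neither mutant list. STK (AT4G09960), the MADS-box gene of ovule identity SEEDSTICK, had 1 peak of each list about 800 bp outside the gene, at 6241883-6242282, 6241893-6242292 and 6241897-6242296 on chromosome 4 in the same order. Both genes lie close to the edge of their block.

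Of the 903 protein-coding block genes with a symbol, 274, or 30.3%, had a peak of all 3 lists within 1000 bp, against 28.95% on the arms and 29.1% of all such genes. That difference was 1.39 points (-1.66 to 4.60), and its interval included 0. The 30 with a LFY + UFO centre nearest to an end of the gene, SEP4 among them, all had it within 66 bp. That centre lay outside the gene in 21 cases and inside in 9, and the table used gives no strand, so starts and ends were not told apart. In 15 of the 30 the 3 lists had equal numbers of peaks, and in 12 LFY + UFO had more than either mutant list. LFY K249R + UFO had a peak in no other list at none of the 30, LFY K249R at 1 and LFY + UFO at 14. Over all 274 genes such a peak was present at 3 (1.09%), 9 (3.28%) and 117 (42.7%) in the same order of lists, equal numbers of peaks at 146 (53.3%), and more LFY + UFO peaks at 104 (38.0%). Since the LFY + UFO distance chose the 30, their counts are a description.

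Among the 30, the genes known from hormone responses and signalling differed from each other. CLE25, which encodes a small signalling peptide, had 1 peak per list, centred 8 bp outside the gene for LFY K249R + UFO, 7 bp for LFY K249R and 9 bp for LFY + UFO. IAA28, a repressor of auxin responses, had 1 peak per list at 68, 55 and 57 bp outside. AHP2, a phosphotransfer protein of cytokinin signalling, had 1 per list inside the gene, at 17, 20 and 44 bp from its end. LOX2, a lipoxygenase of jasmonate synthesis, had 2 LFY K249R + UFO, 1 LFY K249R and 2 LFY + UFO peaks. Its single LFY K249R peak lay 1026 bp into the gene and had a partner in both other lists. The further peak lay 24 bp outside in LFY K249R + UFO and 25 bp outside in LFY + UFO. All 3 lists thus met at the same spot of CLE25, IAA28 and AHP2. At AFP3, of a family of proteins that bind abscisic acid response factors, they did not, since the LFY + UFO peak lay 46 bp outside the gene and the mutant peaks 410 and 415 bp. GASA2, of a family of gibberellin-regulated peptides, had 1 LFY K249R + UFO, 1 LFY K249R and 2 LFY + UFO peaks. MAPKKK9, a protein kinase of the MAP kinase cascade family, had 2, 3 and 3.

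Single shared peaks also lay at genes with other roles. ELF8, a subunit of the PAF1 transcription complex needed for expression of the floral repressor FLC, had 1 peak per list at 59, 48 and 45 bp outside for LFY K249R + UFO, LFY K249R and LFY + UFO. ASF1B, a histone chaperone, had 1 per list at 33, 48 and 48 bp inside. SQN, a cyclophilin that acts with microRNAs in shoot development, had 1 per list at 38, 31 and 52 bp inside. LSH1, a member of the ALOG family of nuclear proteins, had 1 per list at 20, 17 and 20 bp outside.

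At other genes LFY + UFO added peaks to a shared one. AUG5, a subunit of the augmin complex of microtubules, had 2 LFY K249R + UFO, 2 LFY K249R and 6 LFY + UFO peaks, 3 of the last in neither mutant list. OXP1, an oxoprolinase of glutathione metabolism, had 1, 1 and 5, of which 4 were in neither mutant list. SUS4, a sucrose synthase, had 1, 1 and 3, and EXLA3, an expansin-like cell wall protein, had 1, 1 and 2. HMG had 2, 2 and 3, with 1 peak of LFY + UFO alone, as at SEP4. RBP47C, an RNA-binding protein, was the exception with 2, 3 and 2 peaks, and it carried the LFY K249R peak in no other list.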

How the data were processed

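Per the labels, the authors deposited 1 list of peaks common to the replicates of each preparation. The submitters' processing notes name Bowtie2, SAMtools, MACS2 and the TAIR10 build, with no role, version or threshold. Intervals are all 400 bp wide, with no value per peak. A peak centre was placed in a block or on an arm, and partners were centres at most 200 bp apart. Gene classes came from the RefSeq table of TAIR10.1, taken to share the nuclear coordinates of TAIR10. As a check, 54.1% of all LFY K249R + UFO centres lay in protein-coding genes, against 59.1% and 58.7% after all were moved by 1000 bp to the left and right; for LFY K249R the values were 53.8%, 58.3% and 58.3%, and for LFY + UFO, where the unmoved share was the highest, 64.7%, 63.5% and 63.1%. Where annotations overlapped, protein-coding genes came first, then pseudogenes. Differences compared within annotation are Mantel-Haenszel differences with Sato intervals. The matching code was checked on simulated data of 3 pairs of lists and missed the known share by at most 0.0902 percentage points. The simulated partners were LFY + UFO peaks moved by less than the 200-bp limit, with no unshared peaks added. Their match was thus fixed in advance, and larger offsets were not tested. The members and lists were chosen with earlier results of these data known. Regions were named by nearness to the middle of the block, most LFY + UFO peaks per 100-kb window, and, for genes, a symbol, peaks of all 3 lists and the smallest distance, at most 30, plus the floral genes. The table has no strand, so a margin of 1000 bp on both sides replaced the planned window at gene starts. Planned values on motifs and repeated sequence were not made, since no genome sequence was used. Alternatives were other partner rules, other block bounds, leaving out each chromosome, merging overlapping peaks and those named as chosen after seeing the data. Scripts ran under Python 3.11.15 with scipy 1.17.1, numpy 2.4.6, matplotlib 3.10.9 and pandas 2.3.3.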

Additional observations from a re-analysis of the deposited data

How the results depend on the processing

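For 22 results, 201 alternatives were computed, 24 of them chosen after seeing the data. The interval of the reported value held 166 of the 201, while 35 fell outside it. No difference whose interval excluded 0 changed sign. Of the others, 4 alternatives had the opposite sign. For LFY K249R + UFO, the share in no other list was -0.0367 points without chromosome 3 and -0.0874 within annotation, the share with a LFY K249R partner was -0.225 without the inner stretch, and the share of centres over 50 bp from LFY + UFO was 0.116 without chromosome 1. Blocks 0.5 Mb narrower on both sides gave block shares of 15.3% for LFY K249R + UFO, 16.1% for LFY K249R and 13.6% for LFY + UFO, and density ratios of 0.646, 0.683 and 0.560. Wider blocks gave 24.3%, 25.0% and 22.1%, and 0.740, 0.767 and 0.652. The share of peaks in protein-coding genes then differed between blocks and arms by -36.8 points for LFY K249R and -38.3 for LFY + UFO with narrower blocks, and by -28.0, -29.2 and -28.6 for the 3 lists with wider ones. Leaving out chromosome 1 gave block shares of 21.9%, 22.6% and 19.4%, leaving out chromosome 2 gave 18.7%, 19.3% and 16.7%, and leaving out chromosome 3 gave 18.8%, 19.5% and 16.6%. Each of these alternatives changed which sequence was counted, and what moved the ratios and the shares in genes was not tested. Compared within the kinds of annotation, the share with a LFY + UFO partner differed by -2.76 points for LFY K249R + UFO and -6.97 for LFY K249R. Without the inner stretch, the density ratios were 0.831, 0.838 and 0.728, the LFY K249R difference in LFY + UFO partners was -7.64 points and that in no other list was 3.26. For protein-coding genes with peaks of all 3 lists, a margin of 3000 bp gave -6.45 points and wider blocks -2.85. The cause of the last 4 sets of shifts was not tested.

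The interval came to include 0 in 5 cases. These were LFY + UFO peaks with a LFY K249R partner and in neither mutant list, each without chromosome 4 and within annotation (1.45 points, -0.550 to 3.45, for the partner), and LFY K249R peaks with a LFY K249R + UFO partner without the inner stretch. The other partner rules and merged peaks moved no difference out of its interval. No paired analysis was possible because each preparation has a single list merged before deposit, and no replicate could be left out. Unknown depth limits all statements on missing peaks.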
